A study of Mus musculus with 20 samples.

Results

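*Ptch1*, *Smo*, *Hhip*, *Sufu*, *Gli1*, *Gli2* and *Gli3*, 7 core genes of the Hedgehog pathway, were taken by gene name from a table of 53380 genes measured in 20 RNA-seq libraries of sorted mouse epidermal cells. All 7 were found, and all 7 reached the level required for testing, which was a normalized count of at least 10 in at least 3 libraries (17204 genes). A normalized count is the number of reads on a gene divided by a size factor of its library. In hair follicle stem cells (HFSCs), *Gli1*, *Gli2* and *Hhip* were several fold higher than in Thy1hi keratinocytes and *Gli3* was 2.0-fold higher, whereas *Smo* and *Sufu* were not called different from any keratinocyte population. In *Smo* every HFSC library nevertheless lay below every Thy1hi library. In dendritic epidermal T cells (DETCs), *Ptch1* was higher and *Smo* lower than in each of the other 4 populations. Thy1hi and Thy1- keratinocytes were not called different in any of the 7 genes.

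Hedgehog ligands bind Patched receptors, which in the absence of ligand hold the membrane protein Smoothened (*Smo*) inactive. Active Smoothened works at the primary cilium and frees the Gli transcription factors from Sufu. Gli2 then acts mainly as an activator, Gli3 serves largely as a repressor, and Gli1 is an activator whose gene is itself a target, as are *Ptch1* and *Hhip*. In skin the pathway is known for its part in hair follicle growth and, when unchecked, in basal cell carcinoma.

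The cells were sorted from dorsal epidermis into HFSCs (integrin-α6 positive, Sca1 negative, CD34 positive, 4 libraries), DETCs (integrin-α6 negative, Sca1 low, Thy1 positive, 5 libraries), and keratinocytes positive for integrin-α6 and Sca1 that were Thy1hi (4 libraries), Thy1- (4 libraries) or Thy1hi and YFP+ (3 libraries). The labels give the genotype Thy1.2CreERT2-Rosa26-EYFP and no treatment for every sample, with ages that run from 8 to 27 weeks, a different one for each sample. The study's text gives wild-type C57BL/6J mice of 8 weeks for the HFSCs, DETCs, Thy1hi and Thy1- cells, and, for the YFP+ cells, induced mice in which Thy1 promoters drive CreERT2 and recombination turns on EYFP. It describes YFP labelling mainly in Thy1hi keratinocytes and none in DETCs. The labels write ScaI- for the YFP+ cells, while their titles and the study's text place them among Sca1+ keratinocytes. Legends give mice per population in one place and pooled mice in another, and for HFSCs and DETCs the mice given do not match the libraries used here. What a library holds is thus unclear, and p-values measure the spread between these libraries only. Age, genotype and induction differ with the population in one or the other source and cannot be told apart from it. Replicate numbers are those of the labels, except that 2 of the DETC columns bear numbers found in no title, so these libraries are called a and b here.

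The libraries held 7781257 to 12982393 reads on genes, of which 13.1% to 41.5% fell on the ribosomal RNA gene *Rn45s*. DETCs had 14320 to 31645 normalized counts summed over 5 T cell markers, against 99.7 to 375 in the other populations. The same DETC libraries held 9972 to 46131 normalized counts over 5 basal keratinocyte markers, against 48623 to 257322 elsewhere. Sorted CD34+ cells had higher *Cd34*, *Lgr5*, *Lhx2* and *Tbx1*, markers of HFSCs, than Thy1hi cells by 4.47 to 5.12 on the log2 scale, *Cd34* being a marker of the sort itself. *Krt15*, the other marker of the list, differed by 1.01 and was not called (limma adjusted p = 0.160). HFSC replicate 4, DETC library a and the fourth Thy1hi and Thy1- libraries stood apart from their groups. HFSC replicate 4 had the lowest *Rn45s* share and 50.5 normalized counts over 3 Langerhans cell markers (1812 to 3850 in the other HFSC libraries). It also had 26538 normalized counts over 5 HFSC markers (48890 to 55078 in the others) and 48623 over the basal keratinocyte markers (104683 to 114606), and DETC library a had the fewest keratinocyte and the most T cell marker counts. The fourth Thy1hi and Thy1- libraries had 35359 and 31768 over the HFSC markers, against 11190 to 21893 in the other libraries of both populations, and the highest *Gli2*, *Gli3* and *Sufu* of their populations. Without HFSC replicate 4, in turn without DETC library a, and without the fourth Thy1hi and Thy1- libraries, the numbers of members called in the comparisons below moved by at most 1.

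*Gli1* had 126, 189, 128 and 298 normalized counts in HFSC replicates 1 to 4. It had 11.0, 9.22, 17.9 and 15.5 in Thy1hi cells, 24.3, 27.8, 18.9 and 32.0 in Thy1- cells, and 15.0, 41.0 and 11.9 in YFP+ cells. DETC replicates 1 to 3 had 29.4, 32.5 and 41.9, and DETC libraries a and b had 12.4 and 39.6. Every HFSC library thus lay at least 3 times above every library of the other populations, with replicate 4 highest. *Gli1* (ENSMUSG00000025407.7, chr10:127329882-127341974, minus strand, mm10), the target gene that also amplifies the response, had a mean 13.8-fold higher in HFSCs than in Thy1hi cells, the lowest population. The Thy1hi libraries lay below the Thy1- libraries, while YFP+ cells and DETCs spanned a wide range. Outside HFSCs these values rest on 7 to 53 reads in a library.

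**Figure D1:**
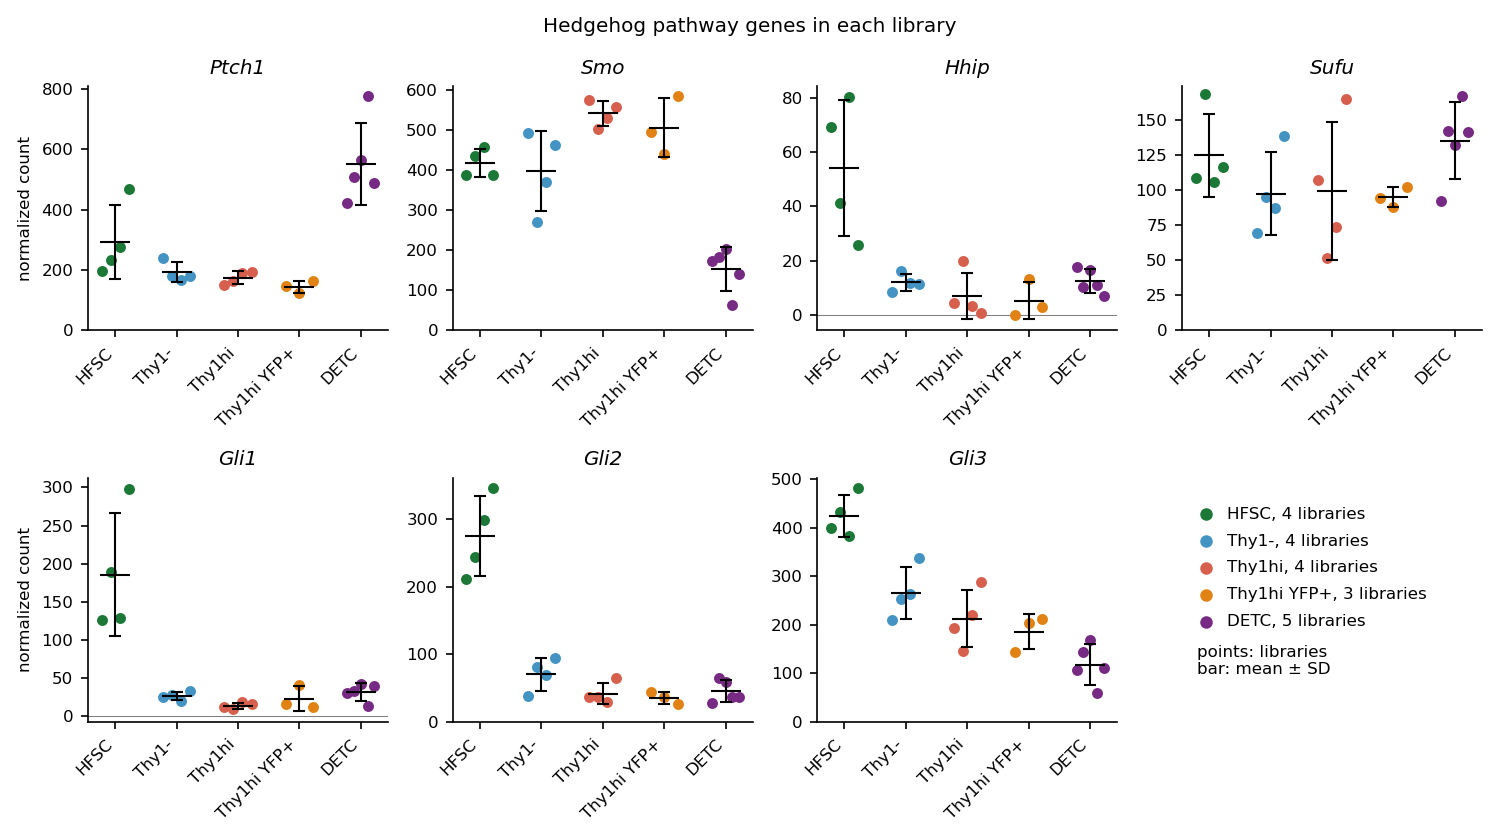
Normalized counts of the 7 genes (vertical axes, linear, each from 0 or just below) in the 5 sorted populations (horizontal axes). Points are libraries and black bars the mean with its SD. The HFSC points of *Gli1*, *Gli2*, *Gli3* and *Hhip* sit above those of every other population, and DETCs are highest in *Ptch1* on average and lowest in *Smo*.

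*Gli2* (ENSMUSG00000048402.14, chr1:118834132-119053619, minus strand), the main activator, had 211, 243, 298 and 345 normalized counts in HFSCs. It had 36.4, 36.9, 29.3 and 65.0 in Thy1hi cells, 37.7, 81.0, 68.6 and 94.3 in Thy1- cells, and 43.9, 37.2 and 25.8 in YFP+ cells. DETC replicates 1 to 3 had 28.4, 65.1 and 59.3, and libraries a and b had 37.1 and 37.2. HFSCs stood above all others, and the remaining populations overlapped one another. *Gli3* (ENSMUSG00000021318.15, chr13:15463235-15730026, plus strand), the gene of the factor that acts largely as a repressor, had a narrower range. Its normalized counts were 399, 432, 383 and 482 in HFSCs, 194, 146, 221 and 288 in Thy1hi cells, and 209, 253, 263 and 338 in Thy1- cells. YFP+ cells had 145, 203 and 211. DETCs had 107, 144 and 169 in replicates 1 to 3, and 59.0 and 110.5 in libraries a and b. The order of the *Gli3* means ran from HFSCs through Thy1-, Thy1hi and YFP+ cells to DETCs, and neighbours in it overlapped in their libraries except HFSCs against Thy1- cells.

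*Hhip* (ENSMUSG00000064325.4, chr8:79965851-80058006, minus strand), which encodes a membrane protein that binds and sequesters Hedgehog ligands, was the least abundant member. HFSCs had 69.3, 41.3, 80.2 and 25.9 normalized counts. Thy1hi cells had 4.42, 19.8, 3.25 and 0.970, and Thy1- cells 8.51, 16.2, 11.8 and 11.5. In YFP+ cells *Hhip* had 0 reads in replicate 1, which allows up to 2.99 normalized counts (3 reads, counting error only), and 13.2 and 2.97 normalized counts in replicates 2 and 3. DETCs had 17.6, 10.2, 16.6, 11.0 and 7.21 in replicates 1 to 3, a and b. HFSC replicate 4, the highest HFSC library for *Gli1*, *Gli2* and *Gli3*, was the lowest for *Hhip*, yet still above every library of the other populations. HFSC libraries lay wholly above those of Thy1hi, Thy1-, YFP+ cells and DETCs in 5, 4, 6 and 5 of the 7 members, as they did in 9.81%, 7.42%, 10.9% and 13.8% of all genes tested.

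The promoters of the members were read to show what sequence lies before their RefSeq start sites. RefSeq (GRCm38.p6) gave a start site for 6 of the 7 members, all but *Gli1*. For *Ptch1* and *Gli3* this start lies inside the gene as given above, which begins at another start site, so their windows are not upstream of the whole counted gene. The 250 bases before the start are shown for *Gli2* and *Hhip*, which stood highest in HFSCs, and for *Smo* and *Ptch1*, the receptor genes with another pattern. Capitals mark CCACCC, the core of the motif bound by Gli factors, or its reverse complement GGGTGG, each written 5′ to 3′ on the strand of the gene.
Gli2 (chr1:119053620-119053869, minus strand): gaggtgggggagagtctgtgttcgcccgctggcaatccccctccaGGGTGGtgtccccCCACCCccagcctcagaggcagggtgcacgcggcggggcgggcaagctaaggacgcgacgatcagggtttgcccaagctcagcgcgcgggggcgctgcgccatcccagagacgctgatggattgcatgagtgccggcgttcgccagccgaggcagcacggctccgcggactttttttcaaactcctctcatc
Hhip (chr8:80058009-80058258, minus strand): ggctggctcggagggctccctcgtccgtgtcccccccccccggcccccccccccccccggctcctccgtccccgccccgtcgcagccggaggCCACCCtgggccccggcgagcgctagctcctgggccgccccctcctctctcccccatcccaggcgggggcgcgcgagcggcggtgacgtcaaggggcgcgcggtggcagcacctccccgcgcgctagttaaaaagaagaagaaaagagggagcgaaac
Smo (chr6:29735247-29735496, plus strand): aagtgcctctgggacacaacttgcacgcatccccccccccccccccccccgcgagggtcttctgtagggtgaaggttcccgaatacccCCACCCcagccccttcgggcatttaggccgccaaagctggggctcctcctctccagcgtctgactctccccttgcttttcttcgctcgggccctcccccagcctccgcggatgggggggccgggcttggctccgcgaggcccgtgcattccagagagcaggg
Ptch1 (chr13:63565736-63565985, minus strand): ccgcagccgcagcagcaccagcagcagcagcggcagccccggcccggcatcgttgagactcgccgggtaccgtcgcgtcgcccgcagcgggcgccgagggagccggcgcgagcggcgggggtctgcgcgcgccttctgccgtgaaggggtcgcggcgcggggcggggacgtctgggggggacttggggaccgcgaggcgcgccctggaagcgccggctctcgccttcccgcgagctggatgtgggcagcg

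CCACCC on either strand began 192 and 205 bases before the RefSeq start of *Gli2*, 158 before *Hhip*, 162 before *Smo* and 170 before *Gli3*, and was not in the windows of *Ptch1* and *Sufu*. It was in 28.1% of the 32851 promoter windows of the same length, so that a match is common. The longer motif GACCACCCA, searched on both strands and containing the shorter one, was in none of the 6 windows and in 0.225% of all windows. The 4 windows shown held 78.4% G and C in *Ptch1*, 76.0% in *Hhip*, 68.4% in *Smo* and 67.2% in *Gli2*, and that of *Sufu* 54.0%, against a median of 52.4% over all windows. The letters were matched only, and no binding was measured.

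HFSCs were then compared with each population to ask which members set them apart. Against Thy1hi cells, 4 of 7 members were called higher in HFSCs and none lower, at a Benjamini-Hochberg adjusted p under 0.05 in limma over all genes tested, where 6.86% of genes were called higher and 6.51% lower. *Gli1* was higher by 3.64 ± 0.42 (SE, n = 4 and 4 libraries) on the scale of log2(normalized count + 1) (limma adjusted p = 5.91e-06), *Gli2* by 2.72 ± 0.32 (adjusted p = 1.01e-05), *Hhip* by 3.19 ± 0.69 (adjusted p = 0.00377) and *Gli3* by 1.03 ± 0.27 (adjusted p = 0.0122). On linear means these were 13.8-fold, 6.55-fold, 7.63-fold and 2.0-fold. The *Hhip* fold rests on Thy1hi replicate 2, which held 15 of its 24 Thy1hi reads, and was 18.8 without it. *Ptch1* was 0.67 higher and missed the threshold (limma adjusted p = 0.0609), with HFSC replicate 1 level with the highest Thy1hi library and the others above. It passed in edgeR (adjusted p = 0.0328) and DESeq2 (adjusted p = 0.0240) on whole reads, and without HFSC replicate 1 (0.0264). With 1 library left out, the *Ptch1* difference ran from 0.42 to 0.84 and its limma adjusted p from 0.0264 to 0.194. Its fold of linear means was 1.34 without HFSC replicate 4, the highest HFSC library, and 1.72 to 1.87 without another HFSC library. In a bulk sample, fewer cells of a type and less RNA per cell cannot be told apart. Leaving out 1 library at a time gave 3 to 5 members called, with *Gli3* lost without Thy1hi replicate 2 (limma adjusted p = 0.0538), as it was with libraries scaled to the same total (0.0692), and 4 called without HFSC replicate 4.

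Against Thy1- cells, *Gli1* and *Gli2* were called, so that 2 of 7 members were higher where 3.52% of all genes were higher and 2.56% lower. *Gli1* was higher by 2.73 ± 0.42 (SE, limma adjusted p = 0.000390) and *Gli2* by 2.0 ± 0.32 (adjusted p = 0.000762), 7.20-fold and 3.90-fold on linear means. The HFSC libraries of *Gli3* and *Hhip* also lay above every Thy1- library, but their differences of 0.69 (95% interval 0.13 to 1.24, limma adjusted p = 0.125) and 1.99 (0.54 to 3.44, adjusted p = 0.0914) were not called. The exact permutation test for *Hhip* gave p = 0.0286 (two-sided, n = 4 and 4), the smallest it can give. *Hhip* passed in DESeq2 (adjusted p = 0.0139). *Smo* differed by 0.10 (-0.45 to 0.65) and *Sufu* by 0.37 (-0.24 to 0.98), both intervals including 0. Leaving out any 1 library gave 2 or 3 members called.

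Against YFP+ cells, 5 of 7 members were higher in HFSCs, where 6.33% of all genes were higher and 5.24% lower. *Gli1* (3.09 ± 0.45 SE), *Gli2* (2.92 ± 0.35), *Hhip* (3.72 ± 0.75) and *Gli3* (1.20 ± 0.29) were called, with limma adjusted p from 1.24e-05 to 0.00882, and so was *Ptch1* (0.93 ± 0.25, limma adjusted p = 0.0186). The count was 3 when *Gli3* and *Ptch1* lost their calls, without YFP+ replicate 1 and with libraries scaled to the same total. *Ptch1* also lost its call without YFP+ replicate 2 (limma adjusted p = 0.0710) and in a fit of these 2 populations only (0.115). The *Hhip* fold of means was 10.1, and 36.5 without YFP+ replicate 2, which held 17 of the 20 YFP+ reads. With 4 against 3 libraries an exact test cannot go below p = 0.0571.

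Markers of other cells were read beside these differences. The 4 melanocyte markers summed to 97.0 to 272 normalized counts in HFSCs and 24.3 to 77.6 in Thy1hi cells, and 3 of them (*Dct*, *Tyrp1* and *Pmel*) were called higher in HFSCs than in Thy1hi cells. The sums of the 6 fibroblast markers (225 to 767 in HFSCs and 186 to 1946 in Thy1hi cells) and of the 4 dermal papilla markers (32.9 to 63.1 and 52.0 to 110.6) overlapped. The fibroblast sums of HFSCs lay above those of Thy1- cells (123 to 215) and YFP+ cells (44.6 to 218), and their melanocyte sums above those of YFP+ cells (43.6 to 61.9) while overlapping those of Thy1- cells (44.97 to 105). The 3 Langerhans cell markers summed to 1812 to 3850 in HFSC replicates 1 to 3 and 50.5 in replicate 4, against 399.6 to 962 in Thy1hi cells. The 4 markers of differentiated keratinocytes summed to 21225 to 44466 in HFSCs and 7916 to 24412 in Thy1hi cells, where replicate 4 alone reached the HFSC range. The sums of the 4 Schwann cell markers were lower in HFSCs (176 to 435) than in Thy1hi cells (545 to 757). So were those of the 5 basal keratinocyte markers (48623 to 114606 against 171225 to 228574). The 3 upper follicle markers summed to 1347 to 3050 in HFSCs, 2546 to 4174 in Thy1hi, 2705 to 4474 in Thy1- and 1796 to 2259 in YFP+ cells. The part of these cells in the HFSC levels of the members was not tested.

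**Figure D2:**
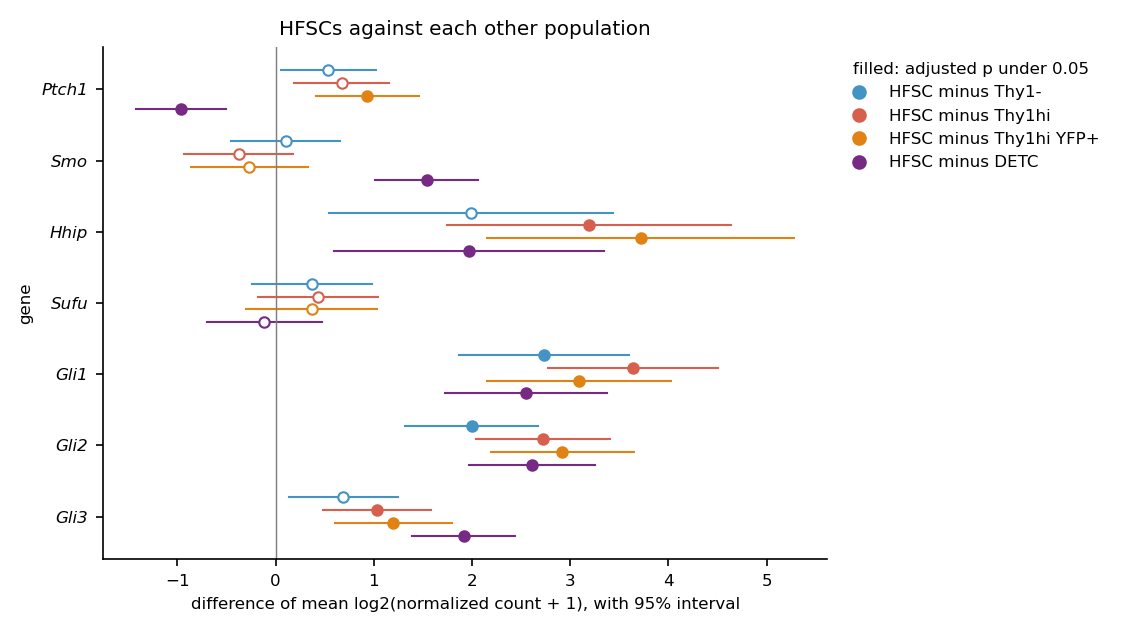
Difference of the mean log2(normalized count + 1) between HFSCs and each other population (horizontal axis, positive where HFSCs are higher) for the 7 genes (vertical axis). Points are limma estimates, lines their 95% intervals, and filled points passed an adjusted p of 0.05. The *Gli1* and *Gli2* points are filled and between 2.0 and 3.64 in all 4 comparisons, while *Ptch1* is on opposite sides of 0 for DETCs and for the keratinocyte populations.

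The pair of receptor-level genes *Ptch1* and *Smo* ran in other directions. *Ptch1* (ENSMUSG00000021466.12, chr13:63508328-63573598, minus strand), the gene of the ligand receptor and a target of the pathway, had 421, 508 and 565 normalized counts in DETC replicates 1 to 3, 777 in library a and 489 in library b. It had 195, 232, 275 and 469 in HFSCs, 149, 163, 189 and 195 in Thy1hi cells, 241, 179, 167 and 181 in Thy1- cells, and 147, 125 and 164 in YFP+ cells. HFSC replicate 4 was the only library outside DETCs within the DETC range. *Smo* (ENSMUSG00000001761.7, chr6:29735503-29761365, plus strand), the gene of the transducer that *Ptch1* restrains, had 173, 184, 203, 64.5 and 140.5 normalized counts in DETC replicates 1 to 3, a and b. It had 388, 436, 459 and 388 in HFSCs, 575, 503, 531 and 557 in Thy1hi cells, 491, 269.6, 369.95 and 461.5 in Thy1- cells, and 494, 439 and 584 in YFP+ cells. All 15 libraries outside DETCs lay above the DETC range. DETC library a, with the fewest keratinocyte marker counts, had the lowest *Smo* and the highest *Ptch1*.

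HFSCs and DETCs differed in 6 of 7 members, against 39.7% of all genes (18.5% higher and 21.2% lower in HFSCs). Of the 6, *Gli1* (2.55 ± 0.39 SE, 5.95-fold), *Gli2* (2.61 ± 0.31, 6.05-fold), *Gli3* (1.92 ± 0.25, 3.60-fold), *Hhip* (1.97 ± 0.66, 4.33-fold) and *Smo* (1.54 ± 0.25, 2.73-fold) were higher in HFSCs, with limma adjusted p from 1.0e-06 to 0.0218. *Ptch1* was 1.88-fold higher in DETCs (log2 difference -0.96 ± 0.22, HFSC minus DETC, limma adjusted p = 0.00160). *Sufu* differed by -0.11 (95% interval -0.70 to 0.47). Without HFSC replicate 1 or 3 the call of *Hhip* was lost (limma adjusted p = 0.0637 and 0.0711), which left 5. With same-numbered HFSC and DETC libraries taken as pairs the count was again 6. *Hhip* also lost its call with a pseudocount of 0.1 (limma adjusted p = 0.111) and with a replicate block over all populations (0.0517).

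*Ptch1* was also higher in DETCs than in Thy1hi, Thy1- and YFP+ cells, by 3.17-fold, 2.87-fold and 3.80-fold (limma adjusted p from 2.78e-06 to 2.1e-05), and *Smo* was lower in DETCs by 3.54-fold, 2.60-fold and 3.30-fold (4.05e-06 to 0.000148). *Gli3* was lower in DETCs than in Thy1hi cells (log2 difference 0.88, Thy1hi minus DETC, limma adjusted p = 0.00830, but 0.47 and adjusted p = 0.0581 with a replicate block over all populations) and than in Thy1- cells (1.23, adjusted p = 0.000726). Against YFP+ cells the *Gli3* difference of 0.72 passed narrowly (limma adjusted p = 0.0442) and lost its call under 19 alternatives, among them leaving out any of DETC libraries 1, a or b. It was 0.49 without library a, where 2 members were called. *Gli1* was 2.32-fold higher in DETCs than in Thy1hi cells (limma adjusted p = 0.0343), a call lost under 10 alternatives. In all, 4, 3 and 3 of 7 members were called against Thy1hi, Thy1- and YFP+ cells, where 36.6%, 34.1% and 38.1% of all genes were. These DETC comparisons share the same 5 DETC libraries.

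The DETC libraries also held keratinocyte reads, and library a stood apart from the other 4 in them. Library a had 9972 normalized counts over the 5 basal keratinocyte markers, against 33571 to 46131 in the other 4, and 31645 over the 5 T cell markers, against 14320 to 22200. It also had the lowest *Gli1*, *Gli3* and *Smo* and the highest *Ptch1* and *Sufu* of the DETC libraries. The part of keratinocyte RNA in the DETC levels was not tested. *Gli1* shares 62 of its 4995 exon bases with *Arhgap9* on the other strand, and 265 with *Gm47200*. *Arhgap9* had 68.5 to 227 normalized counts in DETCs and at most 20.6 elsewhere, and whether the counting used strand is not given in the sources used here. The part of this overlap in the *Gli1* values of DETCs was not tested.

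*Sufu* (ENSMUSG00000025231.16, chr19:46396896-46488804, plus strand), the gene of the inhibitor that holds Gli factors in the cytoplasm, was the most even member. Its means ran from 95 ± 6.91 (SD, n = 3) normalized counts in YFP+ cells to 135 ± 27.4 (n = 5) in DETCs, a ratio of 1.42, and it was called in none of the 10 comparisons. Without the fourth Thy1hi and Thy1- libraries it was called lower in both populations than in DETCs (limma adjusted p = 0.0145 and 0.0486). HFSCs had 108.5, 168, 106 and 116, Thy1hi cells 107, 51.4, 74.0 and 165, and Thy1- cells 69.3, 94.9, 87.6 and 139. The spread within Thy1hi cells thus exceeded the difference between any of the population means.

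Thy1hi and Thy1- keratinocytes were compared to ask whether Thy1 level separates cells that differ in the pathway. None of the 7 members was called (limma, 2 at an unadjusted p under 0.05, and none called by edgeR or DESeq2), and few genes were, 0.337% of all tested. *Gli1* had 13.4 ± 3.98 (SD, n = 4) normalized counts in Thy1hi cells and 25.7 ± 5.52 in Thy1- cells, and every Thy1hi library lay below every Thy1- library. Its difference was -0.91 (95% interval -1.78 to -0.04, limma adjusted p = 0.624). *Smo* had 542 ± 31.4 in Thy1hi and 398 ± 100.03 in Thy1- cells, with every Thy1hi library above, and differed by 0.48 (-0.07 to 1.03, limma adjusted p = 0.792). Both gave an exact permutation p of 0.0286 (two-sided), the smallest that 4 against 4 libraries allow. A gap in which Thy1hi libraries all lie lower was found in 3.17% of all genes and one in which they all lie higher in 3.59%.

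Libraries of the same number deviated together in Thy1hi and Thy1- cells (r 0.293 to 0.716). Differently numbered libraries had r from -0.651 to 0.514, which overlaps this range, and the labels give the libraries of each pair different ages. The pairing is thus uncertain. A fit of these populations alone with the number as a block called 1137 genes in place of 58, 6.61% of those tested. In it no member was called, although 5 had an unadjusted p under 0.05. *Smo* came nearest (limma adjusted p = 0.0550 in the blocked fit), followed by *Gli2* (0.120), *Gli1* (0.153), *Gli3* (0.201), *Hhip* (0.212), *Ptch1* (0.706) and *Sufu* (0.920). *Gli1*, *Gli2* and *Gli3* were lower in Thy1hi than in Thy1- cells in 4 of 4 pairs, *Smo* higher in 4 of 4, *Hhip* lower in 3 of 4, and *Ptch1* and *Sufu* lower in 2 of 4. The *Gli1* pair difference ranged from -1.49 to -0.08, that of *Gli2* from -1.20 to -0.05, and that of *Smo* from 0.23 to 0.90. The same fit called all 5 basal keratinocyte markers higher in Thy1hi cells, by 0.74 to 1.11, and all 4 markers of differentiated keratinocytes (*Krt1*, *Krt10*, *Lor* and *Ivl*) lower, by 0.92 to 1.42 on the log2 scale, and all 3 Langerhans cell markers lower, by 0.62 to 0.93. Of the 6 fibroblast markers it called 4 higher in Thy1hi cells, *Col1a1* by 2.70, *Col3a1* by 2.59, *Dcn* by 1.80 and *Col1a2* by 1.35. It also called the upper follicle marker *Lrig1* lower (-0.71), and *Lgr6*, of the same list, and the T cell marker *Cd3e* higher (0.71 and 1.14). The part of these cells in the pair differences of the members was not tested. A p that misses the threshold does not show that the populations are alike in these genes.

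**Figure D3:**
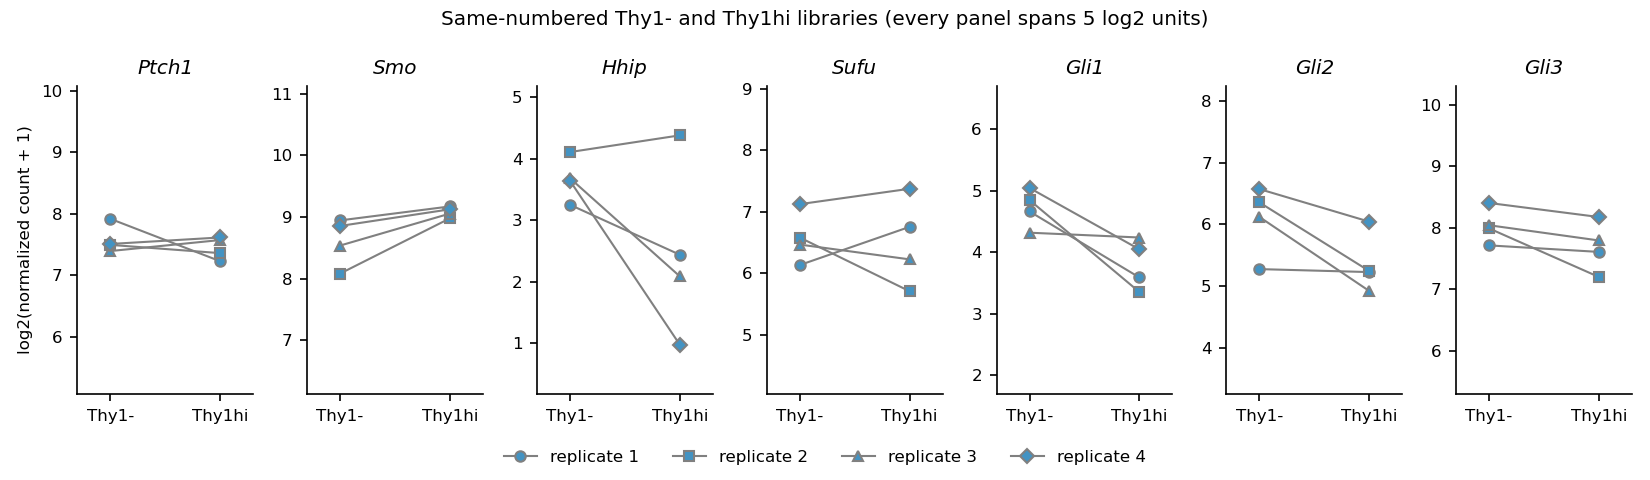
Values of log2(normalized count + 1) (vertical axes, every panel spanning the same number of log2 units) in Thy1- and Thy1hi libraries of the same replicate number, joined by lines, for the 7 genes. The lines of *Gli1*, *Gli2* and *Gli3* all go down from Thy1- to Thy1hi and those of *Smo* all go up, and none of these differences passed the threshold.

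YFP+ cells, the recombined Thy1hi keratinocytes, were compared with Thy1hi and Thy1- cells in the same way. No member was called in limma, edgeR or DESeq2 against Thy1hi cells (none at an unadjusted p under 0.05 in limma), where 0.0116% of all genes were called, and none against Thy1- cells (2 at an unadjusted p under 0.05), where 0.761% were. The intervals against Thy1hi cells were wide for the low genes, running from -2.10 to 1.03 for *Hhip* and from -0.38 to 1.49 for *Gli1*, and narrower for *Smo*, from -0.70 to 0.49. Against Thy1- cells the smallest adjusted p was that of *Gli2*, with a difference of -0.92 (95% interval -1.65 to -0.19, limma adjusted p = 0.239), and the lowest difference that of *Hhip*, at -1.73 (-3.29 to -0.17, adjusted p = 0.312). With 1 library left out, the *Hhip* difference ran from -2.67 to -0.763.

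Levels of different genes were compared per kilobase of exon, which takes gene length out. *Smo* had the highest level of the members in HFSCs (74.3 ± 6.29 normalized counts per kb, SD) and in Thy1hi (96.3 ± 5.58), Thy1- (70.8 ± 17.8) and YFP+ cells (89.95 ± 12.98), and *Ptch1* in DETCs (38.9 ± 9.57). *Hhip* was lowest in every population, from 0.592 to 5.97. In HFSCs the 3 Gli genes stood close together, at 37.1, 40.0 and 44.2 per kb for *Gli1*, *Gli2* and *Gli3*. In Thy1hi cells they were 2.69, 6.10 and 22.2.

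The share of each Gli gene in the sum of the 3 per-kb levels does not depend on how libraries are scaled, and is given as a description chosen after the values were seen. *Gli3* made up 31.4% to 42.7% of it in HFSCs, 60.4% to 67.8% in Thy1- cells, 67.9% to 74.6% in Thy1hi cells, 60.8% to 78.2% in YFP+ cells and 43.9% to 52.6% in DETCs. *Gli1* made up 29.7% ± 6.20 (SD, n = 4) in HFSCs and 8.76% ± 1.92 in Thy1hi cells. The gene of the factor known mainly as a repressor thus held the larger part of the Gli sum in every Thy1hi, Thy1- and YFP+ library, and at most 42.7% in each HFSC library. These shares depend on the exon lengths used (4995 bases for *Gli1*, 6869 for *Gli2* and 9589 for *Gli3*). So does whether *Gli3* holds the larger part of the sum in a library. *Gli3* shares 188 of its 9589 exon bases with *Gm6556*, and *Hhip* 175 of its 9076 with *Gm27820*, both on the other strand, and how reads there were counted was not tested. The ratio of *Ptch1* to *Smo* per kb was 0.963 to 4.77 in DETCs, its highest value being library a. These values depend on the exon lengths used (14185 bases for *Ptch1* and 5621 for *Smo*), and so does their place relative to 1, while the order of libraries does not. It was 0.199 to 0.479 in HFSCs, with replicate 4 highest and the others at most 0.237, 0.156 to 0.264 in Thy1- cells, 0.103 to 0.141 in Thy1hi cells and 0.112 to 0.117 in YFP+ cells. The Thy1hi and YFP+ libraries all lay below the Thy1- libraries in this ratio.

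**Figure D4:**
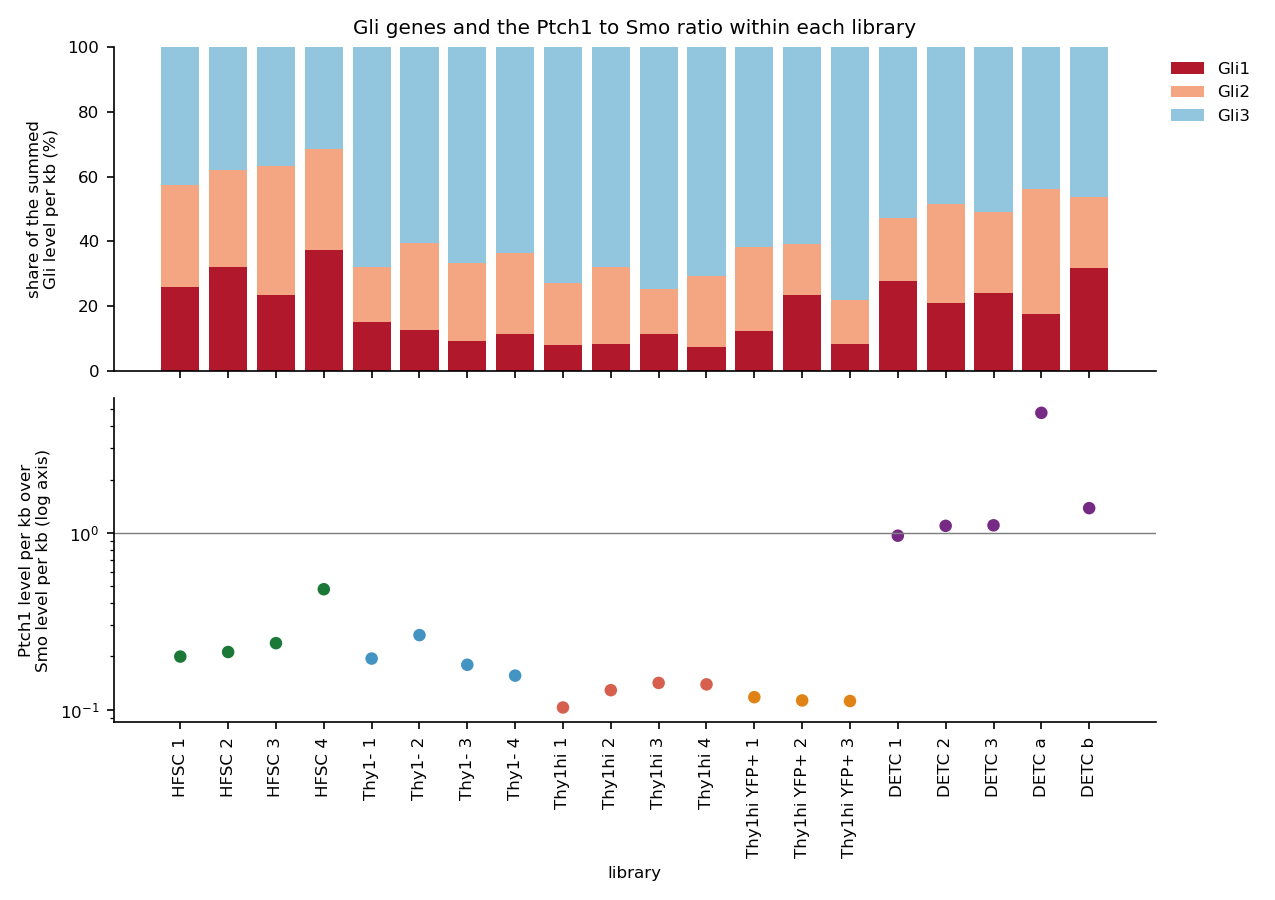
Top, share of *Gli1*, *Gli2* and *Gli3* in the sum of their levels per kilobase of exon (vertical axis, percent) in each library. Bottom, level of *Ptch1* over that of *Smo*, both per kilobase (logarithmic axis, with a line where they are equal). Each column is 1 library, grouped by population, and *Gli3* takes at least 60.4% in each Thy1hi, Thy1- and YFP+ library and at most 42.7% in HFSCs. The DETC ratios run from 0.963 to 4.77 and all others lie at or below 0.479.

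Other genes of the pathway were read from 4 lists of 38 genes in all, of which 33 could be tested. The ligand genes were nearly silent. *Shh* had at most 1.63 normalized counts in any library, *Ihh* at most 4.64 and *Dhh* at most 7.91, and none of the 3 could be tested. Among genes of ligand processing and release, *Disp1*, which exports lipid-modified ligand, was 1.18 ± 0.31 (SE) higher on the log2 scale in HFSCs than in Thy1hi cells (limma adjusted p = 0.0137). *Hhat*, *Scube1*, *Scube2* and *Scube3* were not called (-0.58, 0.27, 0.76 and 1.44).

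Of the 4 coreceptor genes tested, 2 were called higher in HFSCs than in Thy1hi cells and 2 than in Thy1- cells, where 6.86% and 3.52% of all genes were. *Boc*, which helps present ligand to Patched, had 771, 862, 917 and 1202 normalized counts in HFSCs, 283, 254, 280.4 and 364 in Thy1hi cells and 351, 334, 362 and 502 in Thy1- cells. It was higher in HFSCs by 1.66 ± 0.33 and 1.27 ± 0.33 (limma adjusted p = 0.00210 and 0.0266). *Cdon*, its relative, was higher by 1.08 ± 0.21 and 1.01 ± 0.21 (adjusted p = 0.00135 and 0.00552). *Gas1* (1.09 and 1.58, adjusted p = 0.145 and 0.0549) and *Lrp2* were not called by limma, while DESeq2 called *Gas1* against both and edgeR against Thy1- cells.

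Of the 19 regulators and cilium genes, 5 were called higher in HFSCs than in Thy1hi cells and 5 than in Thy1- cells by limma, and none lower. Of all genes, 6.86% and 3.52% were called higher in these comparisons, and 6.51% and 2.56% lower. Against Thy1hi cells DESeq2 also called *Btrc*, which was higher in HFSCs (1.76-fold on linear means), and *Csnk1a1*, which was lower (0.711-fold). The 5 were the same in both, which use the same HFSC libraries. They were *Kif7*, a ciliary kinesin that organizes Gli processing (1.71 and 1.60), *Kif3a* (1.28 and 1.06) and *Dync2h1* (1.13 and 1.14), motors of transport in the cilium, *Tulp3*, a ciliary trafficking adaptor (1.03 and 0.91), and *Prkacb*, a catalytic subunit of the kinase that primes Gli factors for processing (0.88 and 0.98). *Kif7* had 98.1, 172, 135 and 189 normalized counts in HFSCs against 23.7 to 66.0 in Thy1hi and 35.3 to 58.2 in Thy1- cells. In *Dync2h1*, HFSC replicate 4 had 1007 normalized counts and the other HFSC libraries 320 to 366, all above the 140 to 251 of every other library.

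Among target genes known from skin, *Bcl2*, an inhibitor of cell death, was higher in HFSCs by 1.28 and 1.15 and *Sox9*, a follicle stem cell factor, by 2.07 against Thy1hi cells (0.74 and not called against Thy1- cells, but 1.17 and called without HFSC replicate 4, limma adjusted p = 0.0433). *Ccnd2*, which encodes a cyclin of G1, was 1.19 lower in HFSCs than in Thy1hi cells (limma adjusted p = 0.00489). *Mycn* and *Ccnd1* were not called, and *Foxe1* was too low to test. Over the 4 lists, 10 of 33 genes were called higher and 1 lower in HFSCs against Thy1hi cells, with a median difference of 0.48, where 6.86% and 6.51% of all genes were called and their median was -0.02. Against Thy1- cells limma called 8 higher and none lower, where 3.52% and 2.56% of all genes were called. The median of the 33 genes was 0.45 (all genes, -0.04), and DESeq2 also called *Ccnd2* lower (-0.82, adjusted p = 0.0296). With libraries scaled to the same total, in which *Rn45s* is included, all 8 of the latter lost their calls (limma adjusted p from 0.0608 to 0.150) at differences of 0.70 to 1.38. *Dync2h1* also lost its call against Thy1hi cells (0.0913). Leaving out 1 library ended the Thy1- call of *Boc*, *Kif7* or *Kif3a* in 5, 4 and 4 cases, among them HFSC replicate 4 and Thy1- replicates 1 and 2 for each (limma adjusted p up to 0.0894), that of *Dync2h1* without Thy1- replicate 1 (0.0869) and that of *Bcl2* without Thy1- replicate 3 (0.0587).

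**Figure D5:**
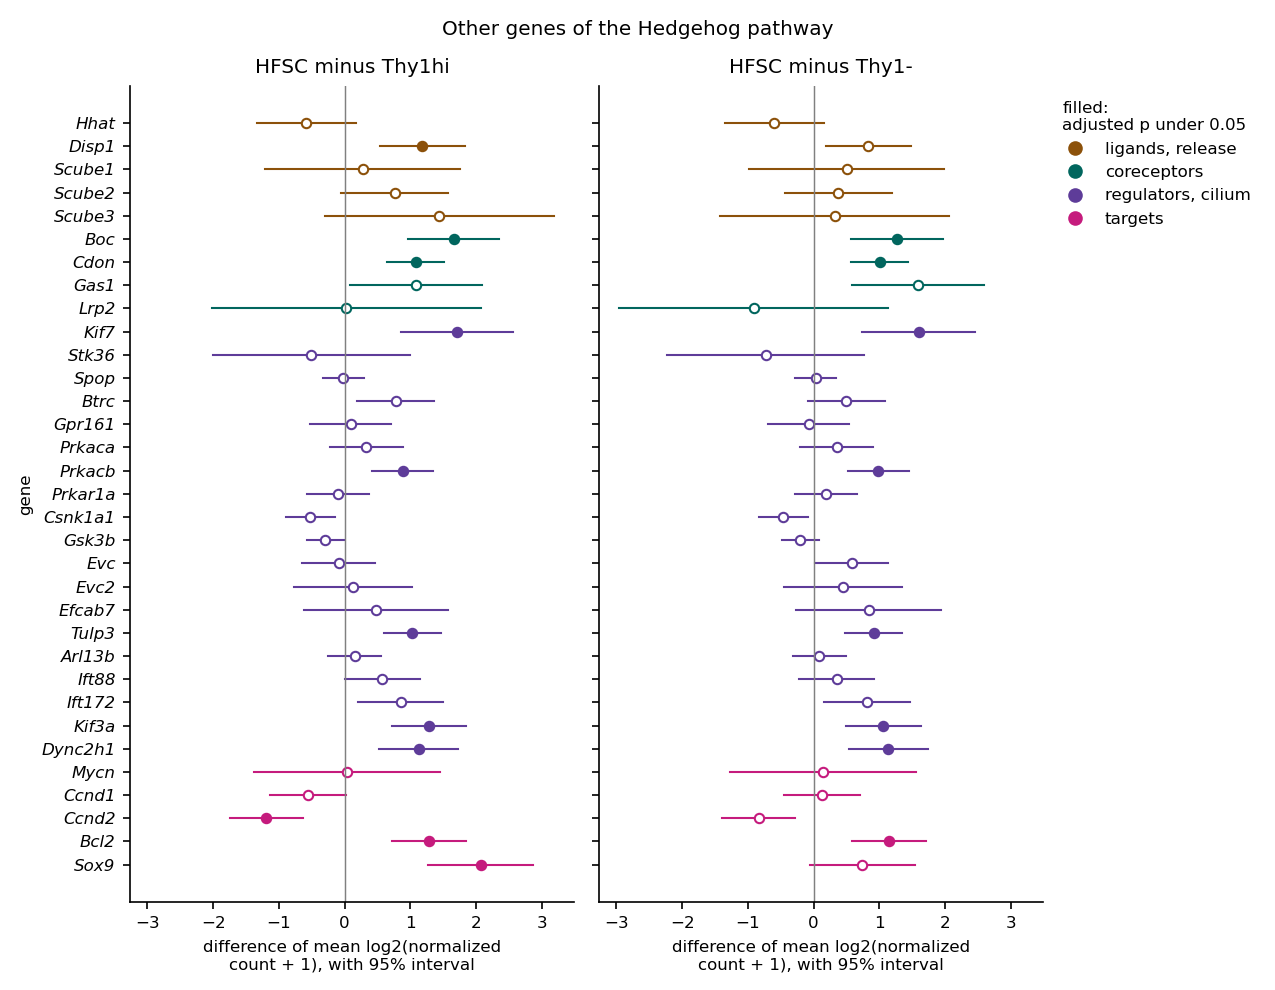
Difference of the mean log2(normalized count + 1) between HFSCs and Thy1hi cells (left) and HFSCs and Thy1- cells (right) for the 33 other pathway genes that could be tested, with limma 95% intervals (horizontal axes, positive where HFSCs are higher). Filled points passed an adjusted p of 0.05, and colours give the list. The filled points lie to the right of 0 except *Ccnd2* in the left panel.

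In DETCs, subunit genes of protein kinase A were read with the other regulators, and the ones named here were chosen after their values were seen. *Prkacb* had 3652 to 8622 normalized counts in DETCs and 135 to 330 elsewhere, and *Prkar1a*, the regulatory subunit of the same kinase, 6080 to 14235 against 563 to 1052. They differed from HFSCs by -4.00 ± 0.21 and -3.25 ± 0.21 (SE, HFSC minus DETC, limma adjusted p = 6.48e-11 and 4.47e-10). *Bcl2* was 2.10 lower in HFSCs than in DETCs, with 628 to 1907 normalized counts in DETCs. Of the 33 genes, 15 were higher and 6 lower in HFSCs than in DETCs, in a background of 18.5% and 21.2%. Library a had the highest *Prkacb*, *Prkar1a* and *Bcl2* among DETCs, as it did *Ptch1*. Of the other kinase genes of the list, *Prkaca*, *Csnk1a1* and *Gsk3b* were not called between HFSCs and DETCs by limma (0.62, -0.12 and -0.15). *Stk36*, with at most 23 reads in a library, was lower in HFSCs (-2.04, limma adjusted p = 0.0215), but edgeR and DESeq2 did not call it. Protein kinase A has many uses outside the Hedgehog pathway.

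Between Thy1hi and Thy1- cells none of the 33 genes was called by limma or edgeR (3 at an unadjusted p under 0.05 in each), and DESeq2 called *Sox9*. The blocked fit of these populations called 3, where it called 6.61% of all genes, namely *Sox9*, lower in Thy1hi cells by 1.33 (limma adjusted p = 0.000147), *Ccnd1*, higher by 0.68 (0.00570), and *Evc*, a cilium gene of the pathway, higher by 0.67 (0.0218).

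The genes whose log2 values ran most like those of a member over the 20 libraries were listed by Pearson r as a description, since the libraries share their populations. For *Gli1* they were *Setbp1* (r = 0.966), *Grem1* (0.965), *Thsd1* (0.951), *Mertk* (0.951) and *Tbx1* (0.942). *Hhip* was followed less closely, by *Sema6c* (0.893), *Cep295nl* (0.868), *Sox13* (0.861), *Col4a3* (0.855) and *Pknox2* (0.853). For *Ptch1* they were *Bcl2* (0.960), *Lncpint* (0.956), *Inpp5f* (0.954), *Itsn1* (0.949) and *Fbxl12* (0.947). *Bcl2* is in the list of pathway targets, and its mean, like that of *Ptch1*, was highest in DETCs. The means of *Gli1* and *Hhip*, targets as well, were highest in HFSCs.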

How the data were processed

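The deposited values (unit: signal) are gene counts that the authors obtained with STAR (mm10) and featureCounts (Ensembl genes) and divided by 1 DESeq2 size factor per library. Library kits and instruments differed and the series ran in 2 batches that the labels do not assign to libraries, so a batch could not be fitted. Multiplied by the size factor (0.729 to 1.43), values returned whole reads within 0.1 of a read for 100% of the values up to 1000, the range checked. In Thy1- replicate 4, the values of 3212 genes stood in the order of gene names without hyphens and were put back (r with the other Thy1- libraries at these genes 0.0506 before and 0.934 after), which moved no member and *Stk36*.

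The 7 members and the gene lists were chosen with earlier results of these data known. Differences were fitted with limma 3.58.1 (trend) in R 4.3.3 on log2(normalized count + 1), 20 libraries in 1 fit, two-sided, adjusted by Benjamini-Hochberg over 17204 genes. All members, all ligands and the list genes called against Thy1hi or Thy1- cells are named, and the 5 most similar genes by r. Same-numbered libraries were taken as paired where every pair's deviations correlated above 0.1. That held for Thy1hi and Thy1- cells (r 0.293 to 0.716 over 4 pairs) and for HFSC and DETC replicates 1 to 3 (0.170 to 0.333). Differently numbered libraries had r from -0.651 to 0.514 and from -0.250 to 0.371, so that the rule does not establish the pairs. Exon lengths came from GENCODE vM21. The fit was tested on simulated data. Alternatives were a pseudocount of 0.1 or 10, testing all genes or those with a mean of 50 or more, equal totals, quantile normalization, edgeR 4.0.16 and DESeq2 1.42.0 on whole reads, 2 populations only, replicate blocks, the deposited row order and leaving out libraries. The block of HFSCs and DETCs and the within-library ratios were added after the data were seen.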

Additional observations from a re-analysis of the deposited data

Results flagged for a closer look

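*Sufu* in HFSC replicate 2 had 168.34 normalized counts, while the other 3 HFSC libraries had 106 to 116, a gap of 0.832 of the whole range. It was the only value that stood this far from the rest of its group among the 28 groups of 4 or 5 libraries examined (7 genes in 4 populations), and chance sets apart about 1 group in 20.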

How the results depend on the processing

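Over the 70 differences of members between populations, 2244 values were computed under alternatives, of which 2147 kept direction and side of the threshold, 42 lost a call, 21 gained one and 34 changed sign. Of the 27 differences called, 20 kept their call throughout and none changed sign. Against YFP+ cells the 5 members called in HFSCs became 3 with equal library totals, and 3 to 5 when 1 library was left out. The sign changes, those of *Scube1* and *Scube3* (not members, and not in these counts) included, were of differences that were not called, and the cause was not tested. On the log2 scale they were as follows. With equal totals, *Smo* in HFSCs minus Thy1- cells became -0.116, *Sufu* in YFP+ minus Thy1- cells -0.0807, and *Hhip* in Thy1- cells minus DETCs 0.152. With quantile normalization, *Sufu* in YFP+ minus Thy1- cells became -0.0669, *Gli2* in Thy1hi cells minus DETCs 0.0527 and *Hhip* in Thy1- cells minus DETCs 0.0335. In edgeR and DESeq2, *Scube1* in HFSCs minus Thy1- cells was -0.0544 and -0.0978, and *Sufu* was 0.0309 and 0.0240 in Thy1hi minus Thy1- cells, -0.0709 and -0.0701 in YFP+ minus Thy1hi cells, and -0.0400 and -0.0461 in YFP+ minus Thy1- cells. Without the fourth Thy1hi and Thy1- libraries, *Scube3* in HFSCs minus Thy1- cells was -0.0500 and *Gli2* in YFP+ minus Thy1hi cells 0.0315. When 1 library was left out, HFSCs minus Thy1- cells ran from -0.0719 to 0.216 for *Smo*, -0.113 to 1.19 for *Scube1* and -0.0500 to 0.524 for *Scube3*, and *Sufu* in Thy1hi minus Thy1- cells from -0.346 to 0.208. YFP+ minus Thy1hi cells ran from -0.360 to 0.0315 for *Gli2*, -0.332 to 0.00416 for *Gli3*, -1.48 to 0.437 for *Hhip* and -0.204 to 0.351 for *Sufu*, and *Sufu* in YFP+ minus Thy1- cells from -0.143 to 0.187. Against DETCs, *Gli2* in Thy1hi cells ran from -0.339 to 0.0361 and *Hhip* in Thy1- cells from -0.186 to 0.118. With the replicate block of HFSC and DETC libraries 1 to 3, *Sufu* became 0.0534 and the 6 called members kept their calls. With a replicate block over all populations, genes called went from 58 to 205 in Thy1hi against Thy1- cells, from 2 to 161 and from 131 to 755 in YFP+ against Thy1hi and Thy1- cells, and in HFSCs from 2300 to 3784 against Thy1hi and from 1046 to 2680 against Thy1- cells. Most of these population pairs did not meet the rule for pairing, with r of -0.232 to 0.162 for same-numbered HFSC and Thy1hi libraries. DETC libraries a and b each formed a block alone and so did not inform the DETC differences. In that fit *Gli3* was called in HFSCs against Thy1- cells (limma adjusted p = 0.0105) and *Ptch1* against Thy1hi cells (0.0254). *Hhip* in HFSCs (0.0517) and *Gli3* in Thy1hi (0.0581) and YFP+ cells (0.104) lost their calls against DETCs. Depth limits *Hhip*, which had 0 to 17 reads in YFP+ and Thy1hi libraries, and *Gli1* outside HFSCs, with 7 to 53.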
